A study of Mus musculus with 32 samples.

Results

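The response to LPS of macrophages that cannot sense type I interferon was read from 4 of the 32 arrays of the study, 2 of untreated Ifnar1-/- bone marrow-derived macrophages (BMDMs) and 2 of Ifnar1-/- BMDMs given LPS for 6 h. The arrays were taken by the genotype and treatment in their labels. BMDMs are primary macrophages grown from mouse marrow in the growth factor M-CSF, and LPS is a lipid of the outer wall of Gram-negative bacteria. The Ifnar1-/- cells came from IFNAR1 knockout mice, with no conditional allele or transgene named, and the WT cells used beside them from C57BL/6 mice (C57BL6/J in the methods). According to the labels LPS was used at 100 ng/mL for 6 h, and IFNβ, used in a check, at 1000 U/mL, whereas the methods and legends of the study give other concentrations, lower ones for LPS, that differ from each other. No source states the age or sex of the mice, or whether the 2 arrays of a group came from separate animals, cultures or pools. The p-values rest on the spread between the 2 arrays of a group, pooled over all 16 groups of the 32 arrays. This spread may be technical, and most of it comes from arrays other than the 4 described.

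Total RNA was labelled with 1 dye (Cy3), hybridized to Agilent mouse arrays and read as log2 intensity after quantile normalization, and 16091 genes had a probe above background on at least 50% of the 32 arrays. On the 4 Ifnar1-/- arrays 56.8% to 61.6% of all probes were above background, and on the 4 WT arrays 62.5% to 73.1%. Each slide held the 8 treatments of 1 genotype and 1 replicate number. LPS-treated and untreated cells of 1 replicate number therefore shared a slide, and the WT arrays lay on other slides. Whether levels differ between WT and Ifnar1-/- cells or between their slides cannot be told apart. A difference between the LPS responses of the genotypes cancels a slide offset that adds equally to both conditions. A slide effect on the size of a response is not cancelled and cannot be told apart from the genotype. The probes for Ifnar1 itself were read first. On all 16 Ifnar1-/- arrays the signal of 1 Ifnar1 probe lay between 5.82 and 7.35 log2, under the 7.88 to 10.23 of the 16 WT arrays, and that of another lay between 7.29 and 8.73, under the 9.94 to 11.88 of the WT arrays. The third and brightest probe overlapped between the genotypes, with 11.16 to 12.44 against 9.02 to 14.76. The response to IFNβ was read next. IFNβ changed 0 genes (0%) in Ifnar1-/- BMDMs by limma at an adjusted p under 0.05, where 253 genes had an unadjusted p under 0.05, and 5680 genes (35.3%) in WT BMDMs. The IFNβ count in Ifnar1-/- cells ran from 0 to 13 over the other settings tried.

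LPS is recognised by TLR4 with the co-receptor CD14. The adaptor MyD88 leads from TLR4 to NF-κB and the MAP kinases and so to the early cytokines, and the adaptor TRIF leads to the kinase TBK1 and the factor IRF3, which switches on Ifnb1. Secreted IFNβ binds a receptor made of IFNAR1 and IFNAR2, and the receptor activates ISGF3, a complex of transcription factors that binds the interferon-stimulated response element (ISRE) in front of the interferon-stimulated genes. In WT cells the LPS response at 6 h thus contains genes reached directly and genes reached through secreted interferon. Cells without IFNAR1 lack the second route, and the changes with LPS described here took place in its absence.

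Loss of the receptor left a large response. In Ifnar1-/- BMDMs 3980 of 16091 genes passed the test with LPS (24.7%). Of these 1751 rose (10.9%) and 2229 fell (13.9%), and 2654 changed at least 2-fold. The responses measured on the 2 slides correlated with r = 0.93 (Pearson) over 16091 genes, which do not count as replicates. With the slide as a block, which pairs the arrays of 1 replicate number, the count was 6203, with 2709 higher and 3494 lower. With 1 of the 4 arrays left out it fell to between 2312 (without Ifnar1-/- LPS replicate 1) and 2468 (without Ifnar1-/- LPS replicate 2). The balance depended on the scaling of the arrays: with each array shifted to a common 75th percentile, 1889 genes were higher and 1616 lower. WT BMDMs changed 6620 genes (41.1%), with 2624 higher (16.3%) and 3996 lower (24.8%), and the split there moved to 2994 higher and 2978 lower under the 75th percentile. A call in 1 genotype and none in the other is no test of their difference. The difference between the responses was called for 1066 genes (6.62%), of which 487 responded higher in Ifnar1-/- cells (3.03%) and 579 lower (3.6%). This balance was not stable: with the slide as a block 1586 were higher and 1122 lower, without WT LPS replicate 2 it was 1005 and 616, and without WT LPS replicate 1 it was 156 and 380.

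**Figure D1:**
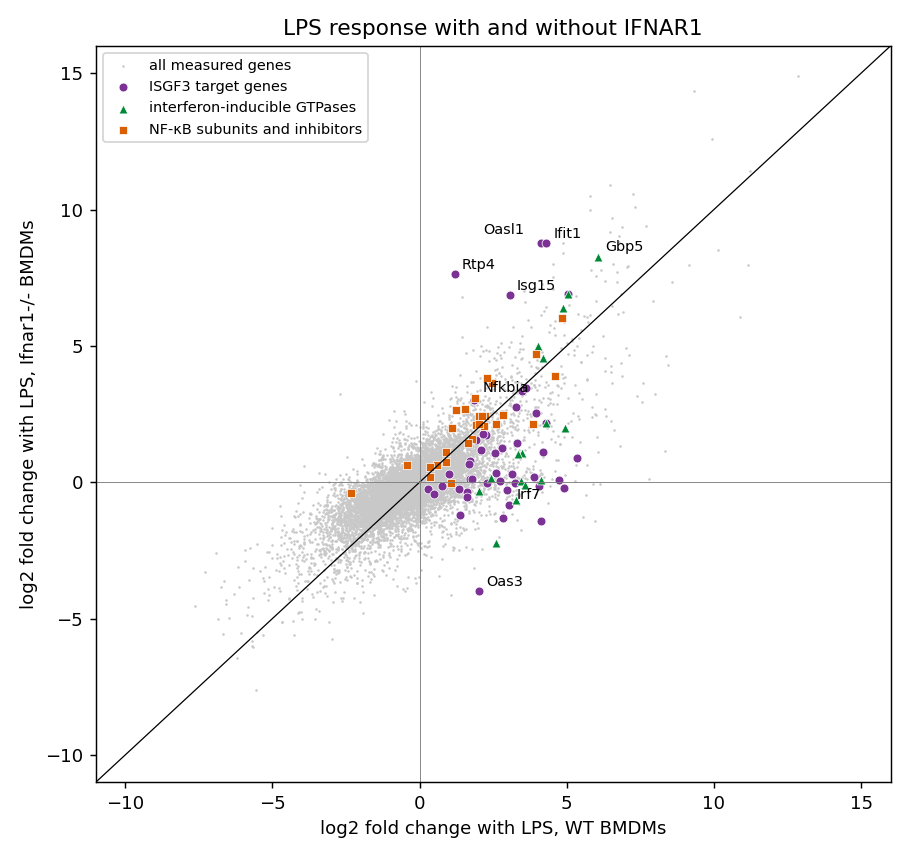
Log2 fold change with LPS in WT BMDMs (horizontal axis) against Ifnar1-/- BMDMs (vertical axis) for 16091 genes, with ISGF3 target genes, interferon-inducible GTPases and NF-κB subunits and inhibitors coloured and the diagonal of equal response drawn. The NF-κB genes lie along the diagonal, while many interferon-stimulated genes lie to the right near 0 on the vertical axis and a smaller group, with Oasl1, Ifit1, Gbp5 and Isg15, lies high on both axes.

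Cytokine and chemokine genes led the largest rises. Il6, which encodes interleukin 6, had log2 intensities of 2.50 and 2.46 in untreated Ifnar1-/- BMDMs, above background on 0 of 2 arrays, and of 17.28 and 17.46 with LPS, so that it was at least 9368-fold higher (log2 fold change 14.89, standard error 1.60, adjusted p = 1.37e-05 by limma). Cxcl3, a neutrophil-attracting chemokine, went from 3.56 and 2.48 to 17.33 and 17.43 and was at least 9442-fold higher (adjusted p = 0.000449). Il1a, which encodes the alarm cytokine IL-1α, went from 2.24 and 2.50 to 14.91 and 15.03, at least 1780-fold higher (adjusted p = 4e-05). The untreated and treated arrays of each of these genes lay more than 12 log2 apart at the means of their groups, and the groups did not overlap. After them came Ptgs2, the inducible cyclooxygenase, with a log2 fold change of 11.40, Acod1, which makes itaconate, with 10.90, Il1b with 10.58, Cxcl1 with 10.48 and Cxcl2 with 9.97. The receptor genes Fpr2 (9.36) and Tarm1 (at least 589-fold), the complement gene Cfb (9.19), the acute phase gene Saa3 (9.02), the cytokine inhibitor Socs3 (8.82), Lad1 (at least 323-fold) and Rasgrp1 complete the 15 largest rises. The 2 probes of Rasgrp1 disagreed in size, with 3.35 and 10.11 log2. Saa3 stood at 18.70 log2 on both LPS arrays, the highest value of the normalized scale, so that its rise could not have been read as larger. The sizes of rises from near background depended on the background correction. With normexp, which adds an offset of 50 to all intensities, the log2 fold changes were smaller. They were 11.18 for Il6, 11.19 for Cxcl3, 8.75 for Il1a, 7.09 for Tarm1 and 6.23 for Lad1. These stood in place of 14.89, 14.36, 12.61, 9.41 and 9.68, and are under the lower bounds given above.

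Transporter and receptor genes led the largest falls. Slco2b1, an organic anion transporter, went from 11.58 and 11.58 to 3.67 and 4.28 and was at least 136-fold lower (adjusted p = 0.000493). Gpr34, a lysophospholipid receptor, went from 10.28 and 10.27 to 4.29 and 4.23, at least 54.9-fold lower (adjusted p = 0.000165). Rnf150 fell by 6.05 log2, Gcnt1, a glycosyltransferase of O-linked glycans, by 5.84, Cxcr4, the receptor for CXCL12, by 5.55, Cd28 by 5.54, Slc46a3 by 5.49 and the transcription factor gene Sox4 by 5.14. Lrrc14b was at least 11.3-fold lower. The fitted log2 fold changes of Slco2b1, Gpr34 and Lrrc14b, -7.61, -6.01 and -5.60, were -5.02, -3.81 and -2.23 with normexp background correction. The brighter probe of St6gal1, which encodes a sialyltransferase, fell by 6.46 log2, and its other probe had a log2 difference of 1.30, so that the direction of the gene is uncertain (mean of both -2.58). WT fold changes of the 25 genes with the largest changes had the same sign, and none of the 25 was called different between the genotypes.

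**Figure D2:**
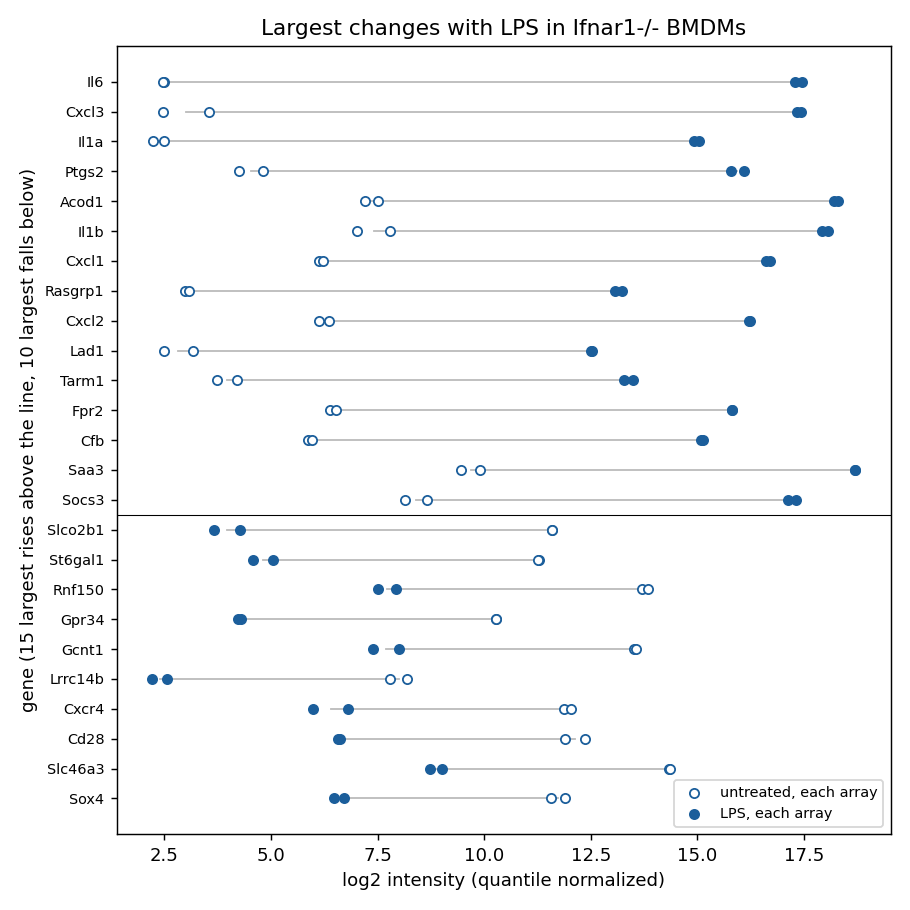
Log2 intensity on each of the 4 Ifnar1-/- arrays for the 15 genes with the largest rise and the 10 with the largest fall, with open circles for untreated and filled circles for LPS-treated BMDMs. The circles of a condition lie close together for each gene, and the conditions do not overlap, with Il6 moving from near 2.5 to above 17 log2 and Gpr34 from 10.3 to near 4.3.

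Most measured genes of the tumour necrosis factor and interleukin 1 families rose. Tnf, which encodes TNFα, had log2 intensities of 9.88 and 10.13 in untreated and 17.51 and 17.66 in LPS-treated Ifnar1-/- BMDMs, a rise of 7.58 log2 (standard error 1.11, adjusted p = 0.000129). In WT cells it went from 10.47 and 10.22 to 16.79 and 15.87, and the difference between the responses, 1.60 log2, was not called (adjusted p = 0.69). Of the 15 genes on the list of the TNF and interleukin 1 family 10 passed the filter, and of these 9 rose and 0 fell (10.9% and 13.9% of all genes). The median log2 fold change of the 10 was 4.69 against -0.06 over all genes. Among members that failed the filter, Il1f6 and Il1f9 were above background on both Ifnar1-/- LPS arrays. Cd40lg, Fasl and Il33 were so on 0 of these 2, while Fasl and Il33 were above background on both WT LPS arrays. The rises included the TNF relatives Tnfsf15 (6.84), Tnfsf9 (4.79) and Ltb (2.19), the inflammasome product Il18 (3.57) and Lta, at least 18.1-fold (log2 fold change 4.60, or 2.21 with normexp). Il1rn, which encodes the natural antagonist of the IL-1 receptor, rose by 2.93 log2, from 9.51 and 9.38 to 12.34 and 12.41, against 7.57 in WT, and the response was lower in Ifnar1-/- cells by 4.64 log2 (adjusted p = 0.000296). Tnfsf10, which encodes the death ligand TRAIL, was above background on 0 of the 4 Ifnar1-/- arrays and rose by 4.37 log2 in WT, and this difference was called as well (adjusted p = 0.00209). For Il1b itself the difference between the genotypes, 3.31 log2, was not called (adjusted p = 0.564), except with only the compared arrays in the fit (adjusted p = 0.0188).

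Cytokines of the IL-6, IL-10 and IL-12 families and the colony-stimulating factors rose in part. Among the 9 of 15 that passed the filter, 6 rose and 0 fell (10.9% and 13.9% of all genes). Il27 rose by 2.39 log2 and its partner subunit Ebi3 by 2.11, and Csf1, the macrophage growth factor, by 2.65. The other 6 members failed the filter and were above background on 10 to 15 of the 32 arrays, so their values are given as a description with no test. Il12b, which encodes the p40 subunit shared by IL-12 and IL-23, had 2.66 and 2.56 log2 in untreated and 14.04 and 14.24 in LPS-treated cells, at least 999-fold higher. Il12a, its p35 partner, was at least 99.7-fold higher (11.17 and 10.46 log2 with LPS), Csf3 at least 33.4-fold and Csf2 at least 22.3-fold. Il23a had 4.63 and 2.99 log2 in untreated and 7.96 and 8.27 in treated cells, and Lif 4.41 and 3.70 in untreated and 4.86 and 5.25 in treated cells. Il10, the main anti-inflammatory cytokine, had 6.30 and 6.50 log2 in untreated and 7.86 and 8.24 in LPS-treated Ifnar1-/- BMDMs, a log2 fold change of 1.65 that was not called (adjusted p = 0.124), against 5.19 in WT. The difference between the genotypes missed the threshold (adjusted p = 0.052) and passed it with the slide as a block (adjusted p = 0.0301). The rise of Il10 in Ifnar1-/- cells was called with only the compared arrays in the fit (adjusted p = 0.00618). Il19, a relative of IL-10, had 7.04 and 7.30 log2 with LPS in Ifnar1-/- cells and 12.12 and 11.73 in WT, and its response was lower by 5.47 log2 (adjusted p = 6.22e-06). The rise of Il19 in Ifnar1-/- cells, 1.34 log2, was 0.75 with normexp and was lost without untreated Ifnar1-/- replicate 1 (adjusted p = 0.118) and without Ifnar1-/- LPS replicate 2 (adjusted p = 0.0766).

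Chemokine genes of both main families rose. Of 11 measured CXC chemokines 6 rose and 1 fell, and of 11 measured CC chemokines 8 rose and 0 fell (10.9% and 13.9% of all genes). The neutrophil attractants had the largest rises: beside Cxcl3, Cxcl1 went from 6.13 and 6.21 to 16.60 and 16.71 log2 and Cxcl2 from 6.37 and 6.12 to 16.23 and 16.21, with WT responses of 5.78 and 5.78. Cxcl5, which failed the filter, was at least 104-fold higher. Cxcl10, a T cell attractant that carries the name of an interferon-induced protein, went from 5.34 and 6.24 to 13.10 and 13.54 log2 in the absence of the receptor, a rise of 7.53 (adjusted p = 8.66e-05) against 4.54 in WT. Its second probe had a log2 difference of 1.56, and the mean of both gave 4.54. Cxcl9, its relative, rose by 2.68, with 7.85 and 7.84 log2 on the LPS arrays, and this call was lost without untreated Ifnar1-/- replicate 2 (adjusted p = 0.0545), and its value was 1.58 with normexp. Among the CC chemokines Ccl3, Ccl4 and Ccl5 rose by 5.24, 6.24 and 6.998 log2, with Ccl5 at 18.47 and 18.38 log2 on the LPS arrays. Ccl17, a ligand of CCR4, rose by 6.62, and Ccl22, its relative, was at least 110-fold higher. The monocyte attractants gave lower values than these. Ccl7 had 8.67 and 9.61 log2 in untreated and 9.93 and 10.67 in LPS-treated Ifnar1-/- cells and did not pass the test, against a rise of 8.35 log2 in WT, and the response was lower by 7.18 log2 (adjusted p = 0.000718), the third largest such deficit. Ccl2 rose by 2.26 log2 against 6.51 in WT (difference -4.25, adjusted p = 0.00401), and its rise in Ifnar1-/- cells was lost without untreated Ifnar1-/- replicate 1 (adjusted p = 0.0774) and without Ifnar1-/- LPS replicate 2 (adjusted p = 0.0704). Ccl12 was at least 12.6-fold higher (log2 fold change 4.29, or 1.90 with normexp). The 3 genes encode ligands of CCR2, and of these the difference between genotypes was called for Ccl2 and Ccl7, while for Ccl12 (-4.14 log2) it missed the threshold (adjusted p = 0.0744) and passed it with the slide as a block (adjusted p = 0.0455) and with normexp (adjusted p = 0.00178).

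**Figure D3:**
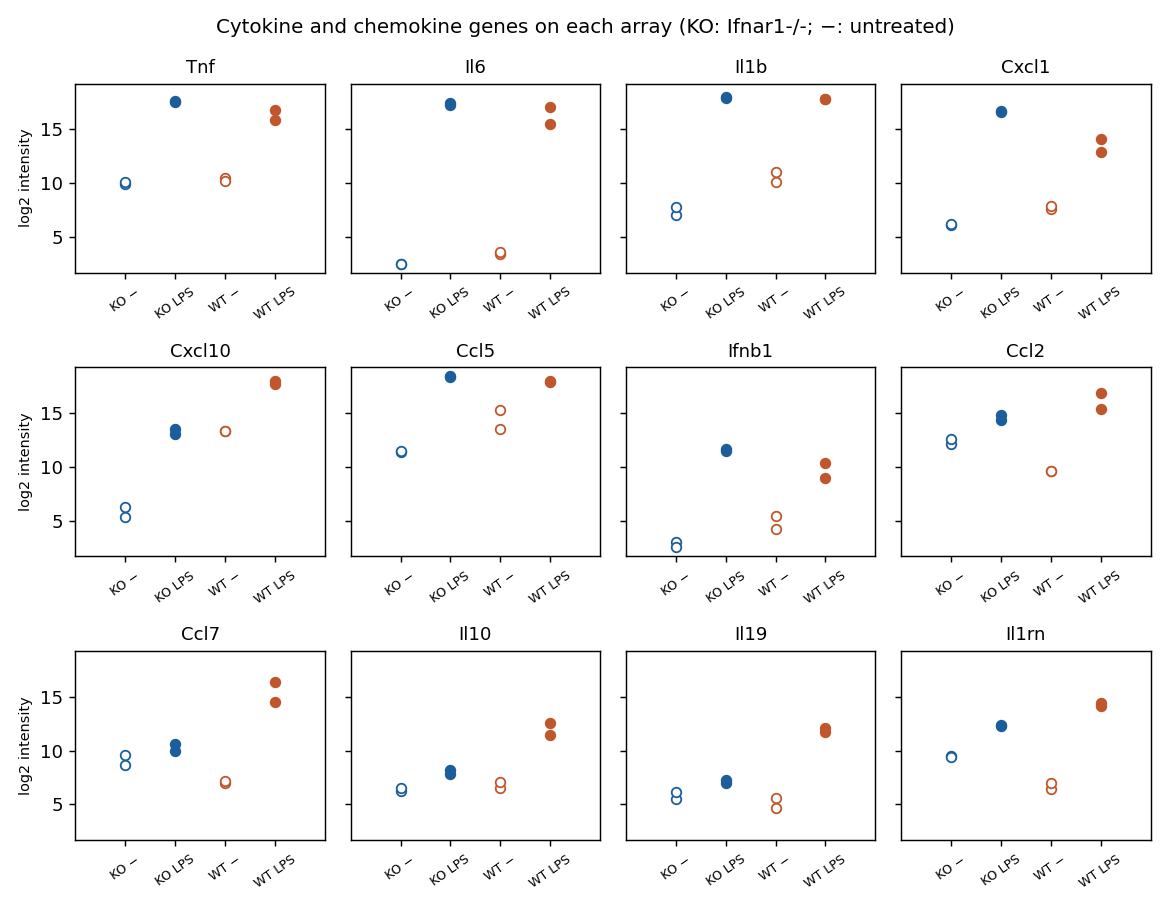
Log2 intensity of 12 cytokine and chemokine genes on the 4 Ifnar1-/- arrays and the 4 WT arrays, with open circles for untreated and filled circles for LPS-treated BMDMs. Tnf, Il6, Cxcl1 and Ccl5 are as high or higher with LPS in Ifnar1-/- cells as in WT, whereas Ccl7, Il10, Il19 and Il1rn stay well under the WT LPS arrays.

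The receptors and adaptors upstream of these genes changed in part. Of 26 TLR genes, co-receptors and adaptors 9 rose and 1 fell (10.9% and 13.9% of all genes), and 4 or 5 rose in fits that omitted 1 of the 4 arrays. Cd14 went from 14.86 and 15.30 to 18.004 and 17.95 log2, a rise of 2.89, Tlr2 rose by 3.10 and Myd88 by 1.66, and Irak3, which encodes a brake on MyD88 signalling, by 3.87 (adjusted p = 0.000505). Tlr13, a sensor of bacterial ribosomal RNA, fell by 1.41. Tlr4 itself had 11.07 and 11.56 log2 in untreated and 10.32 and 10.80 in treated cells and was not called. Tlr3, the sensor of double-stranded RNA, had 6.77 and 7.15 log2 in untreated and 5.64 and 6.72 in treated Ifnar1-/- cells against a rise of 3.24 in WT, and its response was lower by 4.02 (adjusted p = 0.000642).

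Genes of NF-κB subunits and of their inhibitors rose. Of 28 measured subunits, inhibitors and close regulators 20 rose and 0 fell (10.9% and 13.9% of all genes), against 18 and 1 in WT. The median log2 fold change was 2.13 in Ifnar1-/- cells and 1.91 in WT. The precursor subunits Nfkb1 and Nfkb2 rose by 2.44 and 3.63 log2, while Rela had 15.24 and 15.28 log2 in untreated and 15.92 and 15.83 in treated cells and was not called. Nfkbia, which encodes the inhibitor IκBα, went from 14.04 and 14.31 to 17.10 and 17.44 log2, a rise of 3.10 (adjusted p = 0.000151 by limma). The inhibitors Nfkbie and Nfkbib rose by 3.83 and 2.05, and the related regulators Bcl3 and Nfkbiz by 2.10 and 4.71. Tnfaip3, which encodes the ubiquitin-editing enzyme A20, rose by 3.91, Traf1 by 6.02 and Birc3, an inhibitor of apoptosis, by 2.67. The difference from WT was called for 1 gene of the 28, beside 6.62% of all genes. Cyld, a deubiquitinase that restrains NF-κB, had 10.89 and 10.64 log2 in untreated and 10.36 and 10.36 in treated Ifnar1-/- cells and fell by 2.34 log2 in WT, a difference of 1.94 (adjusted p = 0.00791), which was 1.22 with the mean of its probes and was lost without WT LPS replicate 1 (adjusted p = 0.0607). Some inhibitors of cytokine receptor signalling and of cytokine mRNA rose too. Of 18 genes of phosphatase and mRNA decay feedback 5 rose and 4 fell (10.9% and 13.9% of all genes). Socs1, Socs3 and Cish, inhibitors of JAK signalling, rose by 6.51, 8.82 and 5.70 log2, and the RNase gene Zc3h12a by 3.75. The phosphatase genes divided: Dusp16 rose by 3.57, with 4.35 in WT, whereas Dusp1, which switches off p38, had 12.98 and 11.96 log2 in untreated and 12.06 and 11.77 in treated Ifnar1-/- cells and rose by 2.96 in WT (difference -3.51, adjusted p = 0.00736). The difference for Dusp1 was lost without untreated Ifnar1-/- replicate 1 (adjusted p = 0.054). Zfp36l1, which encodes a protein that destabilises AU-rich mRNA, fell by 4.64 log2. Rc3h1 was called lower as well, and Zfp36, the gene in the title of the study, was not called.

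Secondary inflammatory genes are made later and need newly synthesised factors in textbook accounts of the LPS response. Whether each member of the list used here, Ptgs2 for example, belongs to this class was not tested. Of the 18 on the list 13 passed the filter and rose in Ifnar1-/- BMDMs (10.9% of all genes), with a median of 6.06 log2. Beside Il6, Ptgs2 and Saa3 these included Marco, a scavenger receptor for bacteria, which went from 9.77 and 9.19 to 18.09 and 17.66 log2, Serpinb2 (7.97), Slc7a11, the cystine transporter (6.89), Cd38 (5.93), Inhba (4.98) and the iron-sequestering Lcn2 (4.27). Nos2 rose less than in WT. The gene, which encodes the inducible nitric oxide synthase, had 8.51 and 7.66 log2 in untreated and 11.38 and 11.28 in LPS-treated Ifnar1-/- cells and 16.49 and 15.49 in LPS-treated WT cells, and its response of 3.24 log2 was lower than the WT response by 4.74 (standard error 0.79, adjusted p = 0.00105). For genes that supply the enzyme no difference was called: Gch1, which starts the synthesis of its cofactor, rose by 2.75 (WT 3.38), Slc7a2, the arginine transporter, by 5.30 (WT 5.41) and Ass1, which recycles citrulline, by 2.44 (WT 3.34).

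Most genes of tissue invasion rose, and those of metal handling and sterol metabolism were mixed. In the list of tissue invasion, adhesion and plasminogen activation 14 of 19 measured genes rose and 1 fell (10.9% and 13.9% of all genes). Among those that rose were the matrix proteases Mmp9 (5.68), Mmp14 (5.40) and Mmp13 (4.65) and the adhesion gene Icam1 (4.67). The gene that fell was Plau, the urokinase activator, from 12.61 and 12.59 to 8.11 and 8.60 log2, while its receptor Plaur rose by 1.40. Timp1, an inhibitor of matrix proteases, rose by 2.39 log2 against 5.87 in WT, a lower response by 3.48 (adjusted p = 2.53e-05). Of 12 measured iron genes 5 rose and 2 fell (10.9% and 13.9% of all genes), with Cp, the copper ferroxidase, at 7.94 and the metal importer Slc39a14 at 4.66, and with the iron exporter Slc40a1 falling by 2.77. Of 25 genes of sterol and lipid metabolism 9 rose and 4 fell, again beside 10.9% and 13.9% of all genes, and 2 to 4 rose in fits that omitted 1 of the 4 arrays. Abcg1, which exports cholesterol, fell by 2.77 log2 (adjusted p = 0.000311). Of 20 measured chemokine and purine receptor genes 4 rose and 7 fell (10.9% and 13.9% of all genes). The purine receptor genes P2rx4, P2rx7 and P2ry12 were called lower. The receptors for adenosine Adora2a and Adora2b rose by 6.47 and 4.43, and Adora3 had 9.23 and 9.18 log2 in untreated and 9.28 and 9.41 in treated Ifnar1-/- cells against a rise of 3.33 in WT (difference -3.19, adjusted p = 0.0112 by limma). The difference for Adora3 was lost without untreated WT replicate 1 (adjusted p = 0.0553).

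The interferon-stimulated genes divided into genes that rose without the receptor and genes that did not. Ifnb1, which encodes IFNβ, had 3.03 and 2.59 log2 in untreated Ifnar1-/- BMDMs, above background on 0 of 2 arrays, and 11.499 and 11.65 with LPS, at least 169-fold higher, with 10.38 and 9.004 log2 in LPS-treated WT cells. Its log2 fold change was 8.77, or 5.38 with normexp. Of 46 measured ISGF3 target genes 21 rose and 3 fell in Ifnar1-/- BMDMs (10.9% and 13.9% of all genes), whereas 41 rose and 0 fell in WT. Fewer rose in Ifnar1-/- BMDMs with 1 of the 4 arrays left out. The median log2 fold change was 0.32 in Ifnar1-/- BMDMs against 2.77 in WT. The responses differed for 25 of the 46, with 23 lower in Ifnar1-/- cells (579 of 16091 genes, or 3.6%, in the background) and 2 higher. Of 16 interferon-inducible GTPases, which attack the vacuoles of intracellular pathogens, 7 rose and 1 fell, whereas 16 rose in WT, and 8 responded lower.

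**Figure D4:**
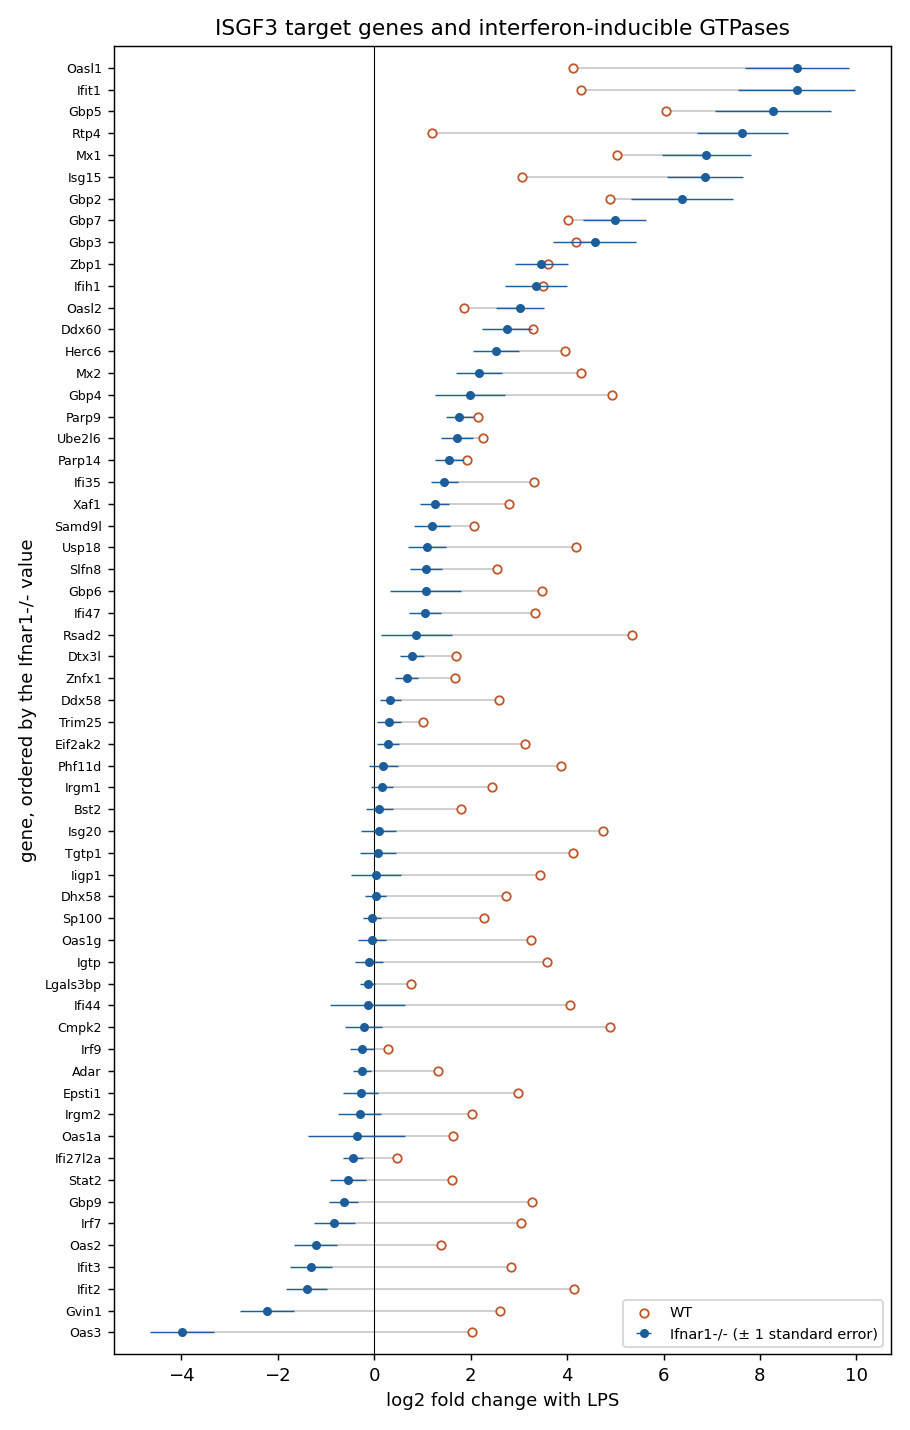
Log2 fold change with LPS of the ISGF3 target genes and interferon-inducible GTPases reported here in Ifnar1-/- BMDMs (filled, with bars of 1 standard error) and WT BMDMs (open), ordered by the Ifnar1-/- value. The upper genes, from Oasl1 and Ifit1 down to about Zbp1, have values above 0 in both genotypes, and toward the lower end the WT values stay above 0 while the Ifnar1-/- values lie around or under 0, as for Oas3 and Gvin1.

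Mx1 and Mx2 belong to both lists. Among the genes that rose without the receptor, Oasl1, an inhibitor of Irf7 translation, went from 3.01 and 3.599 to 12.20 and 11.94 log2, at least 238-fold higher, and Ifit1, which binds viral RNA, from 2.29 and 2.24 to 11.05 and 11.001, at least 115-fold higher. Mx1, a dynamin-like antiviral GTPase, was at least 59.1-fold higher. Isg15, a ubiquitin-like modifier, went from 10.58 and 10.496 to 17.50 and 17.29 log2, a rise of 6.86 against 3.07 in WT, and Rtp4, a chaperone of receptor transport, from 4.80 and 5.92 to 13.14 and 12.87, a rise of 7.64 where the WT value of 1.19 was not called. Rtp4 and Isg15 were the 2 genes of the list whose response was called higher than in WT by limma, by 6.45 log2 (adjusted p = 0.00544) and by 3.79 (adjusted p = 0.0493). Of these the call for Isg15 was lost with any of the 8 arrays left out (log2 difference 3.62 to 3.95). It was also lost with other scalings, background corrections, filters or the mean of its probes, where the adjusted p by limma was 0.0608 to 0.104. The untreated levels of both genes were lower in Ifnar1-/- cells, with 10.58 and 10.496 log2 against 15.32 and 14.98 in WT for Isg15 and 4.80 and 5.92 against 16.02 and 16.02 for Rtp4, where genotype and slide cannot be told apart. Zbp1 and Ifih1, which encode sensors of nucleic acid, rose by 3.47 and 3.35 log2 against 3.61 and 3.49 in WT. Among the GTPases Gbp5, Gbp2, Gbp7 and Gbp3 rose by 8.27, 6.38, 4.99 and 4.57, with WT values of 6.05, 4.88, 4.03 and 4.19. The second probe of Gbp5 had a log2 difference of 0.68 and was not tested alone. Normexp background correction gave 5.88 for Oasl1, 5.02 for Ifit1 and 3.99 for Mx1, under the lower bounds given above. The sizes of these rises thus depended on the probe or the background, while the 4 genes were called in the settings tried.

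The other genes did not pass the test or fell. Irf7, the factor that amplifies interferon production, had 6.55 and 6.83 log2 in untreated and 5.70 and 6.03 in LPS-treated Ifnar1-/- cells, while it rose by 3.04 in WT, a lower response by 3.87 (adjusted p = 0.000593). Cmpk2, a mitochondrial nucleotide kinase, had 6.33 and 6.75 log2 in untreated and 6.22 and 6.42 in treated cells (difference -5.12, adjusted p = 2.53e-05), and Isg20, an exonuclease, 9.12 and 9.09 in untreated and 8.99 and 9.40 in treated cells (difference -4.65, adjusted p = 2.53e-05). The RNA sensor gene Ddx58 and its regulator Dhx58 differed by -2.26 and -2.71, the RNA-activated kinase gene Eif2ak2 by -2.84 and the editing enzyme gene Adar by -1.59. Oas1g, an oligoadenylate synthetase gene, was above background on 0 of the 4 Ifnar1-/- arrays and on all 4 WT arrays, where it rose by 3.26. Irgm1, Igtp, Gbp9 and Tgtp1 were also lower among the GTPases, with differences from WT of -2.28, -3.68, -3.91 and -4.04 log2. Falls were called for Oas3, Ifit2 and Ifit3 on the ISGF3 list. Oas3 went from 9.004 and 8.92 to 5.04 and 4.91 log2 in Ifnar1-/- cells (adjusted p = 0.000342, log2 fold change -3.99, or -2.55 with normexp) and from 11.54 and 12.17 to 13.74 and 14.02 in WT, a difference of -6.01 (adjusted p = 0.000629). Ifit2 went from 5.82 and 6.02 to 4.51 and 4.52, at least 2.57-fold lower (adjusted p = 0.0225), and Ifit3 from 5.54 and 5.94 to 3.86 and 5.001 (adjusted p = 0.034). The log2 fold change of Ifit2 was -0.43 and not called with normexp (adjusted p = 0.517), was not called with the authors' values (adjusted p = 0.25) and its call was lost without untreated Ifnar1-/- replicate 1 (adjusted p = 0.0716), without untreated Ifnar1-/- replicate 2 (adjusted p = 0.121), without Ifnar1-/- LPS replicate 1 (adjusted p = 0.0977) and without Ifnar1-/- LPS replicate 2 (adjusted p = 0.0908). The fall of Ifit3 was called in 7 of 14 alternatives. The log2 fold change was -0.45 with normexp, which was not called (adjusted p = 0.415), and it was not called with the authors' values (adjusted p = 0.181), with no filter (adjusted p = 0.0531) or with only the compared arrays in the fit (adjusted p = 0.0845), and the call was lost without untreated Ifnar1-/- replicate 1 (adjusted p = 0.0706), without untreated Ifnar1-/- replicate 2 (adjusted p = 0.195) and without Ifnar1-/- LPS replicate 1 (adjusted p = 0.382). The lower responses than in WT, -5.54 log2 for Ifit2 and -4.16 for Ifit3, were called in each setting tried.

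Related genes of this group differed. The bases in front of 6 genes are shown here because they pair genes that rose with genes that did not and hold the motifs of the factors named above. The sequences are from RefSeq on GRCm38.p6, run from 5′ to 3′ along the transcribed strand, and end at the base before the annotated start. Capitals mark matches on either strand to the ISRE core, which is GAAA repeated after any 2 bases, and to the NF-κB consensus, and NF-κB matches of both strands may overlap. Ifit1 (chr19:34640639-34640888, plus strand), which rose, and Ifit3 (chr19:34583279-34583528, plus strand), which did not rise, hold 2 ISRE cores each and 0 matches to the NF-κB consensus. Gbp5 (chr3:142496684-142496933, plus strand), which rose, and Oas3 (chr5:120777660-120777909, minus strand), which fell, hold 1 match of each kind. Cxcl10 (chr5:92348890-92349139, minus strand), which rose, holds both kinds, and Cxcl1 (chr5:90890995-90891244, plus strand), which rose, the NF-κB consensus alone.
Ifit1: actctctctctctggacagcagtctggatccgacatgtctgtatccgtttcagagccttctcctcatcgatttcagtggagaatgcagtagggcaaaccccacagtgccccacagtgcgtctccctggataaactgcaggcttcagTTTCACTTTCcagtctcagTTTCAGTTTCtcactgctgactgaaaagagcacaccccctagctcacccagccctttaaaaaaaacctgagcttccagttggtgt
Ifit3: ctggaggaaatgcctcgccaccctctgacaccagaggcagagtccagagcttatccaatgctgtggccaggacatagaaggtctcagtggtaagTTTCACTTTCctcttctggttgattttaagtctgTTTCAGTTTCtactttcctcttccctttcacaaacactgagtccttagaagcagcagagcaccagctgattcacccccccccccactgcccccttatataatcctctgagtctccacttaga
Gbp5: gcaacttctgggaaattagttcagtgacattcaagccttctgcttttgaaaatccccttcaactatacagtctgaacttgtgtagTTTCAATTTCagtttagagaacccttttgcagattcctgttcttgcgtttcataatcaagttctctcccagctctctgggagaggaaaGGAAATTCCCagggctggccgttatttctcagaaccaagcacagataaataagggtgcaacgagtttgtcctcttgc
Oas3: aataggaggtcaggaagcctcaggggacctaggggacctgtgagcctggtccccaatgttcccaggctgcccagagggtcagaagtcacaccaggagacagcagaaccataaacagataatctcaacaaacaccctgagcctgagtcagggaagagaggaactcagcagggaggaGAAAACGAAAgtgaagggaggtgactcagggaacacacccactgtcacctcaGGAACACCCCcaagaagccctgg
Cxcl10: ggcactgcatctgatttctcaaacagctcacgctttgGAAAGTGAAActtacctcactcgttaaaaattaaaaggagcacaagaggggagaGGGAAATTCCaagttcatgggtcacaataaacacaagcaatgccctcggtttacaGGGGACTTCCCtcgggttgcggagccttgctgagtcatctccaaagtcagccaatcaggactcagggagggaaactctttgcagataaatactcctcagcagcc
Cxcl1: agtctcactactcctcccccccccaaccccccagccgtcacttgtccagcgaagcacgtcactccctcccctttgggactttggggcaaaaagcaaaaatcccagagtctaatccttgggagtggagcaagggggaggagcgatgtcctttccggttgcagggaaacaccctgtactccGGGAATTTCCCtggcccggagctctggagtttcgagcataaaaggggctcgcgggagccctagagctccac

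Both motifs stood before genes that rose and genes that fell. Over 15043 such stretches of 250 bases, for 12002 of the 16091 measured genes, 2.89% held the ISRE core and 8.60% the NF-κB consensus. Among ISGF3 targets and GTPases that rose in Ifnar1-/- BMDMs 9 of 22 stretches held the ISRE core and 2 the NF-κB consensus, and among those that did not rise 11 of 32 held the ISRE core and 5 the NF-κB consensus. For genes that rose in WT with a lower response in Ifnar1-/- cells the share with an ISRE core was 9.74% of 503 stretches, and for all genes that rose in Ifnar1-/- cells it was 3.23% of 1764. The NF-κB consensus was held by 17 of 35 stretches of the NF-κB list, by 14.5% of the 484 stretches of genes that rose by at least 2 log2 in Ifnar1-/- cells and by 8.36% of the 2224 of genes that fell. A match describes the letters in this window and is neither a bound site nor a cause.

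In all, interferon-stimulated genes of the lists included, 508 genes that rose in WT responded lower in Ifnar1-/- cells, and of these 67 still rose there, 68 fell and 373 were not called. The 10 named genes with the largest deficit were Slfn4, Lhx2, Ccl7, Ifi213, Slc28a2b, Slc28a2, Oas3, Ifi214, Ifi209 and Ifit2. Slfn4, a Schlafen family gene, was above background on 0 of the 4 Ifnar1-/- arrays and rose by 7.78 log2 in WT (adjusted p of the difference = 0.000577). Lhx2, a homeobox gene, had 4.92 and 4.93 log2 with LPS in Ifnar1-/- cells and 12.93 and 11.79 in WT (difference -7.39, adjusted p = 3.16e-05). Slc28a2 and Slc28a2b, which encode nucleoside transporters, had 10.56 and 10.996 for the former and 8.66 and 9.16 log2 for the latter on the Ifnar1-/- LPS arrays, against 11.15 and 11.37 for the former and 9.03 and 8.89 for the latter untreated, and differed from WT by -6.13 and -6.20 (adjusted p = 3.26e-06 and 2.74e-07). Whether the probes of these paralogs read each other's transcripts was not tested, so their values are uncertain. Ifi213, Ifi214 and Ifi209 belong to the DNA-binding p200 family and differed by -6.83, -5.96 and -5.55, the last of which was lost with normexp (adjusted p = 0.0519), with the authors' values (adjusted p = 0.0543), without untreated WT replicate 1 (adjusted p = 0.0875), without untreated Ifnar1-/- replicate 1 (adjusted p = 0.0803), without untreated Ifnar1-/- replicate 2 (adjusted p = 0.0556), without WT LPS replicate 1 (adjusted p = 0.0823), without Ifnar1-/- LPS replicate 1 (adjusted p = 0.0701) and without Ifnar1-/- LPS replicate 2 (adjusted p = 0.0645).

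Several signalling and metabolic genes shared the lower response. Fcgr1, the high-affinity receptor for IgG, fell from 11.40 and 11.83 to 8.09 and 8.85 log2 in Ifnar1-/- BMDMs and went from 13.87 and 14.08 to 15.63 and 16.02 in WT, a difference of -4.99 (adjusted p = 0.00812). The fall of Fcgr1 was lost without Ifnar1-/- LPS replicate 1 (adjusted p = 0.0618). Pfkfb3, an activator of glycolysis, rose by 1.69 log2 against 4.69 in WT (difference -2.99, adjusted p = 0.000901), and Ccnd2, a D-type cyclin, by 3.16 against 7.40 (difference -4.24, adjusted p = 0.000351). In cell death genes Mlkl, the executioner of necroptosis, went from 9.77 and 9.91 to 10.86 and 10.96 log2, a rise of 1.07 against 3.37 in WT (difference -2.30, adjusted p = 0.000993), and the rise was lost without untreated Ifnar1-/- replicate 1 (adjusted p = 0.0533). Casp1, the inflammasome protease, had a difference of -1.38 (adjusted p = 0.00813) and the survival gene Bcl2l1 one of -2.25 (adjusted p = 0.000395), whereas Nlrp3, the inflammasome sensor, rose by 3.996 log2 and Casp4 by 1.98, with no called difference from WT. The costimulatory genes parted too. Cd40 went from 8.94 and 9.07 to 16.98 and 16.62 log2, a rise of 7.80 (WT 5.82), Cd274, which encodes PD-L1, rose by 3.10 (WT 4.38), and Cd86 had 7.97 and 8.29 log2 in untreated and 7.93 and 7.86 in treated Ifnar1-/- cells while it rose by 2.52 in WT (difference -2.76, adjusted p = 0.00222). In MHC class I presentation 9 of 17 measured genes rose and 1 fell (10.9% and 13.9% of all genes), against 12 and 0 in WT. Tap2, a subunit of the peptide transporter, rose by 1.57 and the immunoproteasome gene Psmb10 by 1.12, while Nlrc5, the class I transactivator, differed from WT by -2.46 (adjusted p = 0.00114).

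Other genes than Rtp4 and Isg15 responded higher than in WT. Among the 487 genes so called, 412 were genes that fell in WT, and 101 were genes that rose in Ifnar1-/- cells. Clec4n, which encodes the fungal receptor Dectin-2, went from 11.45 and 11.75 to 13.72 and 14.04 log2 in Ifnar1-/- cells and fell by 1.03 in WT (difference 3.31, adjusted p = 4.19e-05). Slc6a9, a glycine transporter, went from 6.37 and 6.44 to 10.04 and 10.19 log2 and was not called in WT (difference 3.84, adjusted p = 0.00548). Irf4, a transcription factor of alternative activation, had 7.91 and 8.41 log2 in untreated and 8.50 and 8.9997 in treated Ifnar1-/- cells, and fell by 3.93 in WT (difference 4.52, adjusted p = 0.00548). Cebpa, a myeloid transcription factor, fell by 1.58 log2 against 4.06 in WT (difference 2.48, adjusted p = 0.00226). Hey1, a Notch target, had 9.90 and 9.69 log2 in untreated and 8.97 and 8.92 in treated Ifnar1-/- cells and fell by 4.73 in WT (difference 3.88, adjusted p = 8.99e-05). The rest of the 10 largest positive differences were those of Spns2, a sphingosine 1-phosphate transporter (5.93 log2), Zfp704 (4.31), Lrp8, a lipoprotein receptor (3.77), Abhd15 (3.50) and Socs2, an inhibitor of JAK signalling (3.47). Several of these calls lay near the threshold. That of Socs2 was lost with any of the 8 arrays left out (log2 difference 3.30 to 3.63), and that of Lrp8 with any except WT LPS replicate 2 (3.02 to 4.52 over the 8 omissions). The difference of Spns2, 5.20 to 6.66 log2 over the omissions, was lost without untreated WT replicate 2 (adjusted p = 0.0844), without untreated Ifnar1-/- replicate 1 (adjusted p = 0.0517), without untreated Ifnar1-/- replicate 2 (adjusted p = 0.0562), without WT LPS replicate 1 (adjusted p = 0.0667), without Ifnar1-/- LPS replicate 1 (adjusted p = 0.0549) and without Ifnar1-/- LPS replicate 2 (adjusted p = 0.0558). The difference of Abhd15 was lost without WT LPS replicate 1 (adjusted p = 0.0673), and with the mean of its probes, where it was 1.88 (adjusted p = 0.091). With normexp the differences were 2.74 for Spns2, 1.51 for Zfp704 and 2.20 for Socs2, where both calls were lost, 1.24 for Lrp8, 2.50 for Irf4 and 2.27 for Hey1, and with the mean of probes 2.70 for Zfp704. The count of differing genes rested on the WT arrays as well. It was 536 without WT LPS replicate 1 and 1621 without WT LPS replicate 2, and 2708 with the slide as a block. The WT LPS arrays lay apart for the inflammatory genes, with 17.06 and 15.55 log2 for Il6 and 14.09 and 12.94 for Cxcl1, where the Ifnar1-/- LPS arrays had 17.28 and 17.46 and 16.60 and 16.71.

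The genes that fell in Ifnar1-/- BMDMs included macrophage identity and replication genes. In the list of macrophage identity 14 of 25 measured genes fell and 1 rose (13.9% and 10.9% of all genes), against 9 and 1 in WT. The number that fell in Ifnar1-/- cells was 9 with arrays shifted to a common 75th percentile. It was also smaller with 1 of the 4 arrays left out. Mertk, a receptor for apoptotic cells, fell by 3.39 log2, from 12.001 and 11.92 to 8.58 and 8.57, the chemokine receptor gene Ccr2 fell by 3.25 and Irf8 fell by 1.40, while Csf1r, the receptor for M-CSF, stood at 17.91 and 18.01 log2 in untreated and 17.86 and 17.93 in treated cells. Pparg, a lipid-sensing nuclear receptor, fell by 2.82 and the transcription factor genes Klf4 and Klf2 by 2.37 and 1.40. Of 33 measured cell cycle genes 16 fell and 3 rose (13.9% and 10.9% of all genes), against 16 and 6 in WT. In Ifnar1-/- cells 25 fell with the slide as a block, and fewer than 16 fell with 1 of the 4 arrays left out. E2f2 fell by 4.98 log2, Ccnd1 by 3.48, the ribonucleotide reductase gene Rrm2 by 3.05 and the replication helicase genes Mcm7 and Mcm6 by 2.79 and 2.29. Ccnd1 fell more than in WT, where its log2 fold change of -0.39 was not called (difference -3.09, adjusted p = 0.00427). In prostaglandin and leukotriene synthesis 4 of 15 genes rose and 6 fell (10.9% and 13.9% of all genes). Ptgs2 and Ptges, which make prostaglandin E2, rose by 11.40 and 1.44 (4.07 with the mean of the probes of Ptges), and Ptgs1, the constitutive cyclooxygenase, fell by 2.89, Hpgd, which degrades prostaglandins, by 4.78, and Hpgds, Tbxas1 and Lta4h, which make other eicosanoids, by 3.13, 1.43 and 1.42. The chemokine receptor gene Cxcr4 and the formyl peptide receptor genes Fpr1 and Fpr2 moved in opposite directions, with a fall of 5.55 and rises of 8.01 and 9.36.

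**Figure D5:**
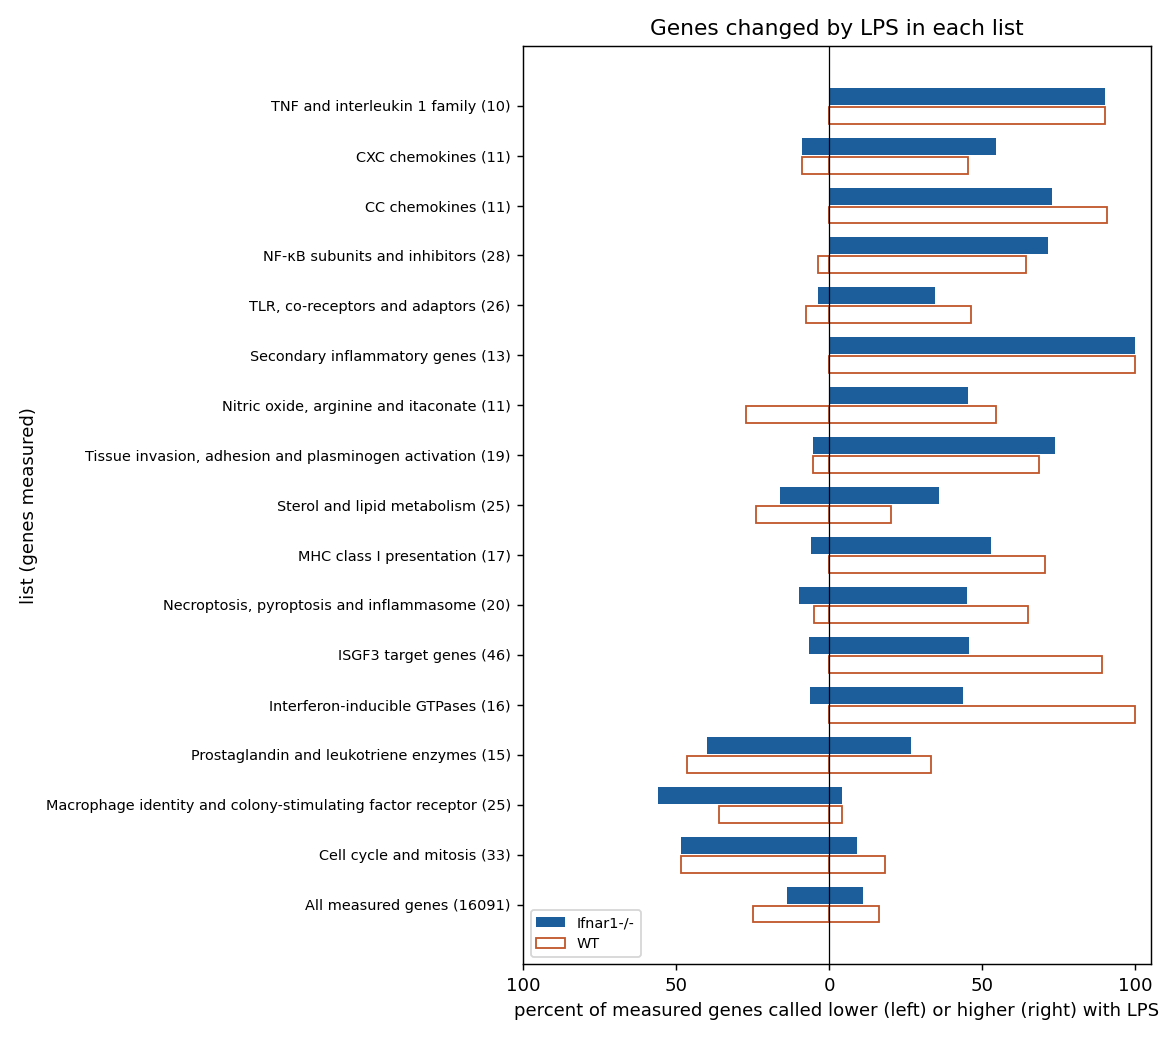
Percent of the measured genes of 16 lists that were called higher (right of 0) or lower (left of 0) with LPS, in Ifnar1-/- BMDMs (filled bars) and WT BMDMs (open bars), with the percent over all 16091 genes at the bottom. In the NF-κB, CC chemokine and secondary inflammatory lists the bars of the genotypes are close, and in the ISGF3 and GTPase lists the WT bars are about 2 times as long.

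The cells carried macrophage markers in both conditions, some of them at high level. All 10 defining macrophage genes were above background on the 4 arrays, with Csf1r and Cd68 above 17 log2, and 2 of the 10 rose with LPS (Cd14 and Spi1) and 4 fell, among them Mertk, Fcgr1 and Cd68. Of 10 markers of neutrophils and their precursors 0 rose and 0 fell by limma at an adjusted p under 0.05, and the summed intensity of the list was 68314 and 68676 in untreated and 99701 and 98102 in treated cells. Of 7 measured dendritic cell markers 2 rose, Ccl17 and Zbtb46, with a summed intensity of 184094 and 119024 in untreated and 133319 and 98630 in treated cells. Of 9 measured T, B and NK cell markers 0 rose and 1 fell (Klrb1c), of 7 fibroblast markers 1 rose (Pdgfrb) and of 5 erythroid, mast cell and endothelial markers 1 fell (Cdh5) (10.9% of all genes rose and 13.9% fell). Their summed intensities lay between 4842 and 11221 on the 4 arrays, against 1134021 to 1272392 for the macrophage list. On each of the 4 arrays 7 to 9 of the 12 listed T, B and NK cell markers had a probe above background. So did 7 of the 10 listed fibroblast markers and 5 or 6 of the 10 listed erythroid, mast cell and endothelial markers. The markers Cd3d, Cd3g, Ncr1, Pdgfra, Alas2 and Fcer1a, among others, were above background on 0 of the 4 arrays. In these bulk samples a change in the share of a cell type and a change of RNA per cell cannot be told apart.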

How the data were processed

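Agilent mouse 8x60K arrays were labelled with Cy3, and the authors deposited 1 scanner table per array, whose processed intensity (background-corrected by Feature Extraction 11.5.1.1, not normalized between arrays) was used here. The authors also deposited a table of normalized log2 values, with medians of 7.61 to 7.80. Its 32 columns each correlated best with their own array (r of at least 0.989), and it served as an alternative. Intensities were log2 transformed and quantile normalized. Of 55681 probes, 21465 with a gene symbol were well above background on at least 50% of the 32 arrays, and the brightest probe stood for each of 16091 genes. Control spots were left out. Symbols came from the array files and, through accessions, RefSeq. With limma 3.58.1 in R 4.3.3, means of all 16 groups of 2 arrays were fitted in 1 model with eBayes, and Benjamini-Hochberg adjusted p-values under 0.05 over 16091 genes were called. All 36 groups of genes and the members described were chosen with earlier results of these data known.

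Named genes were the 15 largest rises, the 10 largest falls, the 10 responses most lower and the 10 most higher than WT among calls, without predicted genes, together with members of the lists. For a probe not above background in a group, folds are lower bounds against the dimmest signals above background. These bounds hold for the main background correction only. The number of arrays limits precision. Arrays of 1 replicate number shared a slide, and deviations from group means correlated between them (r = 0.52 in Ifnar1-/-, 0.47 in WT), so the slide as a block was an alternative. Others were the 75th percentile shift, normexp background correction, other filters, mean of probes, other samples in the fit, robust variance with a trend, and each array left out. Some members of the lists are counted but not reported here by name.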

Additional observations from a re-analysis of the deposited data

Results flagged for a closer look

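The responses of the genotypes were tested against each other directly, and 1066 genes differed at an adjusted p under 0.05 by limma, including the genes below. All values are the log2 fold change with LPS in Ifnar1-/- BMDMs minus that in WT BMDMs, with 2 arrays per group. The most negative differences were Slfn4 -7.66, Lhx2 -7.39, Ccl7 -7.18, Ifi213 -6.83, Slc28a2b -6.20, Slc28a2 -6.13, Oas3 -6.01, Ifi214 -5.96, Ifi209 -5.55, Ifit2 -5.54, Il19 -5.47, Tnfsf10 -5.14, Cmpk2 -5.12 and Fcgr1 -4.99. Differences of middle size were Nos2 -4.74, Isg20 -4.65, Il1rn -4.64, Ccl2 -4.25, Ccnd2 -4.24, Ifit3 -4.16, Tgtp1 -4.04, Tlr3 -4.02, Gbp9 -3.91, Irf7 -3.87, Igtp -3.68, Dusp1 -3.51, Timp1 -3.48 and Adora3 -3.19. Smaller negative differences were Ccnd1 -3.09, Pfkfb3 -2.99, Eif2ak2 -2.84, Cd86 -2.76, Dhx58 -2.71, Nlrc5 -2.46, Mlkl -2.30, Irgm1 -2.28, Ddx58 -2.26, Bcl2l1 -2.25, Adar -1.59 and Casp1 -1.38. Positive differences were Rtp4 6.45, Spns2 5.93, Irf4 4.52, Zfp704 4.31, Hey1 3.88, Slc6a9 3.84, Isg15 3.79, Lrp8 3.77, Abhd15 3.50, Socs2 3.47, Clec4n 3.31, Cebpa 2.48 and Cyld 1.94.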

How the results depend on the processing

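The count of genes changed by LPS in Ifnar1-/- BMDMs was within 1.5 times of 3980 under all alternatives except the replicate block, which gave 6203, and the omission of 1 array (2312 to 2468). The WT count stayed within 1.5 times of 6620. Without the Ifnar1-/- LPS+zVAD+Nec-1 pair in the fit the Ifnar1-/- count was 4495 and the count of differing responses 1578. The count of differing responses was 2708 with the replicate block and ran from 536 to 1621 with 1 array left out. IFNβ in Ifnar1-/- cells changed 1 gene with normexp, 13 with no filter on dim probes, 1 with the filter on the compared arrays and 0 to 2 with 1 array left out, alternatives added after seeing the data. Not all named genes were followed over the alternatives, and of those that were, none reversed direction.

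Of the counts of list members, 92 of 688 alternatives moved by over 1.5 times. In the 75th percentile shift the members called lower were 0 for MHC class I, 9 for macrophage identity, 1 for iron and 0 for erythroid, mast cell and endothelial markers. With normexp the members lower were 2 for TLR, 1 for ISGF3, 0 for MHC class I and 0 for erythroid markers, and 1 T, B and NK cell marker was higher. With the authors' values 10 cytokines of the IL-6 and IL-12 list were higher, ISGF3 had 1 lower, MHC class I 0, erythroid markers 0, and 1 neutrophil marker was higher. Without a filter 11 cytokines of that list and 2 fibroblast markers were higher, and MHC class I and erythroid markers had 0 lower. With the filter on the compared arrays 11 cytokines were higher. With the mean of probes 2 erythroid markers were lower. With only the compared arrays in the fit the members lower were 2 each for CXC chemokines, TLR, GTPases and tissue invasion, 25 for cell cycle, 1 for neutrophil and 0 for erythroid markers, and those higher were 2 neutrophil, 1 T, B and NK cell, 2 fibroblast and 1 erythroid marker. Without the LPS+zVAD+Nec-1 pair 2 TLR genes were lower and 1 neutrophil marker higher. With the replicate block the members lower were 2 for CXC chemokines, 1 for CC chemokines, 2 for TLR, 7 for ISGF3, 2 for tissue invasion, 25 for cell cycle, 1 for neutrophil and 1 for dendritic cell markers, and 2 neutrophil and 2 fibroblast markers were higher. ISGF3 genes higher than in WT numbered 1 under the 75th percentile shift, normexp, the authors' values, no filter, the filter on the compared arrays, the mean of probes and each array left out, and 4 with only the compared arrays, without the LPS+zVAD+Nec-1 pair and with the block. GTPases higher than in WT numbered 2 with only the compared arrays. With 1 array left out the members lower ran from 0 to 1 for CXC chemokines, 1 to 2 for ISGF3, 0 to 1 for GTPases, 0 for MHC class I, 9 to 12 for macrophage identity, 0 to 1 for T, B and NK cell and 0 to 1 for erythroid markers. Those higher ran from 4 to 5 for TLR, 0 to 1 for macrophage identity, 2 to 4 for sterol genes, 1 to 2 for dendritic cell and 1 to 2 for macrophage defining markers. The cause of these shifts was not tested. A lone array left by the omission of its partner was assumed to vary like the other groups.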
